A study of Mus musculus with 24 samples.

Results

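The Bcl2 family decides whether a cell releases cytochrome c from its mitochondria and dies. The anti-apoptotic proteins Bcl2, Mcl1 and Bcl-xL (encoded by Bcl2l1) hold the pore-forming effectors Bax and Bak (Bak1) in check, and the BH3-only proteins Bim (Bcl2l11), Puma (Bbc3), Noxa (Pmaip1), Bid and Bad oppose the anti-apoptotic proteins or engage the effectors. Noxa binds Mcl1 with preference, and Mcl1 is needed for the survival of hematopoietic progenitors and of many myeloid leukemias. These 10 genes were followed here among the 20868 genes with a 3′ untranslated region (3′UTR) in the deposited tables. They were found by translating the RefSeq transcript accession of each interval into a gene symbol. All 10 were present, and all 10 passed the filter on low counts in every comparison.

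SLAM-seq, in which 4-thiouridine (4SU) built into new RNA is alkylated and then read as C in place of T, was run on mouse preleukemic cells expressing Meis1 and Hoxa9 from retroviruses. It compared control cells with cells that carry a deletion of Tut4 and Tut7 (cDKO), the redundant terminal uridylyl transferases that add uridines to RNA ends and mark them for decay. Both had been labelled with 2.9 µM 4SU for 12 h and were collected 0, 60, 180 or 540 min after the 4SU was removed, in 3 replicates for each of the 8 groups. According to the methods, the cells came from c-Kit-enriched fetal liver of E14.5 embryos carrying floxed alleles of both genes, with Vav-iCre, which is active across hematopoietic cells, in cDKO and without it in littermate controls. The controls thus carry the floxed alleles and both oncogenes too.

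The 24 libraries held 4380238 to 7041311 reads in 3′UTRs (median 5321078). Tut4 had 2.55 to 3.45 times and Tut7 1.65 to 2.76 times more CPM (reads scaled to the total of 3′UTR reads in a library) in control than in cDKO cells across the 4 times, with no overlap between genotypes at any time. These reads come from the 3′ end of each transcript, and whether that end lies in the deleted part is not given in the sources used here. The conversion rate already differed between genotypes at the start of the chase. At 0 min 1.62 to 1.67% of covered T positions were converted in control libraries and 0.542 to 0.845% in cDKO libraries. The 8-gene progenitor list summed to 3914 to 4483 CPM in control and 4575 to 7623 CPM in cDKO, most of it from Hoxa9, one of the introduced oncogenes, with means of 2416 and 4491 CPM over the 12 libraries of each genotype. Of the other members, Mpo (573 and 67.2 CPM), Ptprc (235 and 168 CPM), Kit (74.3 and 48.8 CPM) and Spi1 had lower means in cDKO. Cd34 had a higher one (18.8 and 28.6 CPM), and Myb stood at 739 and 727 CPM. Meis1 was at 0 in control at its 3′UTR and at 1.73 CPM in cDKO. Other marker lists moved with genotype. The 5-gene monocyte and macrophage list summed to 974 to 1565 CPM in control and 329 to 995 CPM in cDKO, most of it Ccr2 (means of 1110.0 and 359 CPM), while Adgre1 had a higher mean in cDKO (22.8 and 226 CPM). The 6-gene mast cell and basophil list summed to 15.8 to 34.5 CPM in control and 130 to 246 CPM in cDKO, with Fcer1a and Cma1 at 0 in both. Most of the cDKO sum came from Gata2 (means of 5.52 and 96.1 CPM) and Cpa3 (0 and 62.2 CPM). Mcpt8 (13.3 and 10.3 CPM) and Ms4a2 (6.78 and 6.05 CPM) had slightly lower means in cDKO. The 8-gene erythroid list summed to 0.372 to 3.07 CPM in control and 1307 to 2091 CPM in cDKO, nearly all of it Hbb-bt, with Epor and Alas2 at 0 in both. The neutrophil list summed to 19.7 to 38.7 CPM in control and 0 to 1.53 CPM in cDKO, and the B cell, T cell and stromal lists stayed at or below 9.86 CPM in sum. The part of these differences in the results below was not tested, and in bulk libraries fewer cells of a type and less RNA per cell cannot be told apart. Among the cDKO libraries, replicate 3 had the lowest conversion rate and the highest monocyte sum at each time, so counts are also given without it.

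Bcl2 rose and Pmaip1 fell in cDKO cells at each of the 4 times. Bcl2l1 also rose at 60, 180 and 540 min, while Mcl1 fell at 60 and 540 min, Bax at 60 and 180 min, and Bcl2l11 at 0 and 540 min. Bbc3 and Bad fell at 60 min alone, and Bak1 and Bid passed the test at no time. No effector or BH3-only member rose. A member was called where the Benjamini-Hochberg adjusted p of the edgeR quasi-likelihood test over all genes was under 0.05. By this rule 3 of the 10 members were called at 0 min, where 13.4% of all genes tested were called. At 60 min 7 members were called (20.2% of all genes), at 180 min 4 (18.9%) and at 540 min 5 (19.2%). The members called higher in cDKO numbered 1, 2, 2 and 2 at the 4 times, where 6.72, 9.97, 9.10 and 8.89% of all genes were. Those called lower numbered 2, 5, 2 and 3, where 6.64, 10.2, 9.78 and 10.4% were. The median log2 difference of the 10 members, cDKO minus control, was -0.35, -0.28, -0.21 and -0.10 at 0, 60, 180 and 540 min, and that of all genes tested lay between -0.0012 and 0.0074. The CPM values of the 2 genotypes did not overlap for 6, 8, 7 and 6 members at these times, against 33.4, 38.4, 37.3 and 37.1% of all genes tested. Without cDKO replicate 3, 3, 5, 6 and 5 members were called. In the same fits 1437 of 10371, 2332 of 10269, 2161 of 10299 and 2070 of 10449 genes tested were called.

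**Figure D1:**
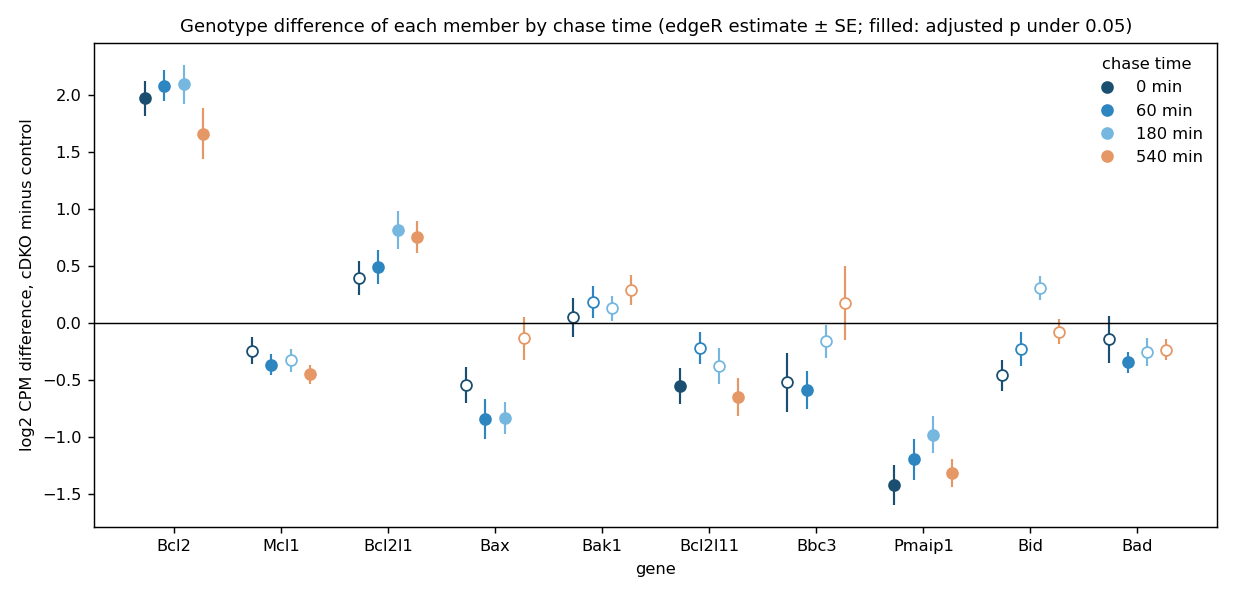
Difference in log2 CPM between cDKO and control cells for each of the 10 members at the 4 chase times, with standard errors from edgeR (n = 3 libraries per group). Filled points had an adjusted p under 0.05. Bcl2 lies between 1.66 and 2.10, Bcl2l1 between 0.40 and 0.81, and Pmaip1 between -1.42 and -0.98.

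Bcl2, the founding survival gene of the family, showed the largest difference of the 10 in either direction. Its long 3′UTR (NM_009741.5, mm10 chr1:106538176-106543263, minus strand, 5088 bases) held most of its reads, and a short one of 116 bases (NM_177410.3) the others. At 0 min the 3 control libraries had 52.1, 51.3 and 51.9 CPM and the 3 cDKO libraries 175, 173 and 256 CPM. At 60 min the values were 49.6, 46.5 and 42.7 CPM in control and 185, 171 and 241 CPM in cDKO. The groups stood far apart at both times, and cDKO replicate 3 was the highest. At 180 min control libraries had 38.3, 33.9 and 50.2 CPM and cDKO libraries 163, 153 and 216 CPM. At 540 min they had 60.4, 52.3 and 51.1 CPM against 174, 114 and 232 CPM. The lowest cDKO library at any time, replicate 2 at 540 min, was thus still above every control library. The log2 difference was 1.97 ± 0.16 (SE) at 0 min (edgeR adjusted p = 0.000132), 2.08 ± 0.14 at 60 min (adjusted p = 7.78e-06), 2.10 ± 0.17 at 180 min (adjusted p = 3.18e-05) and 1.66 ± 0.22 at 540 min (adjusted p = 0.0011), which is a ratio of mean CPM of 3.18 to 4.34. Without cDKO replicate 3 the log2 difference was 1.77, 1.92, 1.93 and 1.40. Over all 14 alternatives at each time, Bcl2 stayed called.

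The reads of the short Bcl2 3′UTR made up 8.18% ± 4.70 (SD, n = 3) of the gene's reads in control and 5.50% ± 2.35 in cDKO cells at 0 min. The mean share at 60, 180 and 540 min lay between 6.06 and 10.5% for control libraries and between 4.15 and 8.41% for cDKO libraries. The shares of the 2 genotypes overlapped at each time (2-sided exact permutation p = 0.4 to 0.6, where 0.1 is the smallest that 3 against 3 libraries can give).

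The Bcl2 3′UTR is known for AU-rich elements, short stretches through which proteins and decay factors act on a transcript. In the GENCODE 3′UTR of Bcl2-201 (GRCm39, 5086 bases, matched to the interval above by gene and length), the pentamer ATTTA occurred 15 times, read on the transcript strand with overlaps counted, and 99.4% of 337 3′UTRs of like length held it. The AU-rich nonamer TTATTTATT, which contains that pentamer, occurred 2 times, and 21.1% of the same 3′UTRs held it. Both windows are shown because Bcl2 was the only member among those matched with this nonamer, and capitals mark it.
Bcl2 3′UTR, nonamer at bases 251 to 259: aaaaaagatTTATTTATTtaagacagt
Bcl2 3′UTR, nonamer at bases 3330 to 3338: ggcatattcTTATTTATTacatctaag
The 3′UTR of Mcl1-201 (2353 bases) held ATTTA 8 times and the nonamer 0 times, where 93.6% and 11.2% of 976 3′UTRs of like length held them. A 3′UTR was matched for 6 of the 10 members, and for Bcl2l11 only the shorter one of 1800 bases and not the long one that held most of its reads, so the motif was not compared across the family, and a match of letters is no evidence of a working element.

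Among the 8321 genes with a mean of at least 10 CPM, the 5 whose log2 CPM followed that of Bcl2 most closely over the 24 libraries were Hlf, C2cd4b, Papss2, F2r and 6330415B21Rik, with Pearson r of 0.978 to 0.983. The 24 libraries comprise 12 of each genotype, and genes that differ between genotypes correlate for that reason alone, so these values are a description and carry no test.

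Bcl2l1 encodes Bcl-xL, the survival protein of erythroid and megakaryocytic cells. Its reads came from the 3′UTR at mm10 chr2:152780664-152782144 (minus strand), and 2 further intervals of the gene held 0 reads. At 0 min control libraries had 31.6, 32.3 and 38.5 CPM and cDKO libraries 41.6, 49.2 and 42.7 CPM, which did not overlap but did not pass the test (log2 difference 0.40 ± 0.15, adjusted p = 0.118). At 60 min they had 40.1, 29.9 and 41.2 CPM against 53.3, 48.2 and 57.2 CPM. The lowest cDKO value exceeded the highest control value at both times. At 180 min the values were 30.7, 31.0 and 34.5 CPM in control and 49.8, 49.6 and 71.8 CPM in cDKO, and at 540 min 27.7, 32.0 and 30.5 CPM and 48.0, 46.2 and 59.5 CPM. The log2 differences of 0.81 ± 0.17 at 180 min (edgeR adjusted p = 0.00655) and 0.76 ± 0.14 at 540 min (adjusted p = 0.00534) were called under all 14 alternatives. That at 60 min, 0.49 ± 0.15 (adjusted p = 0.0387), was lost under 6 of 14, among them scaling by filtered reads (adjusted p = 0.12) and leaving out cDKO replicate 3 (0.069).

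**Figure D2:**
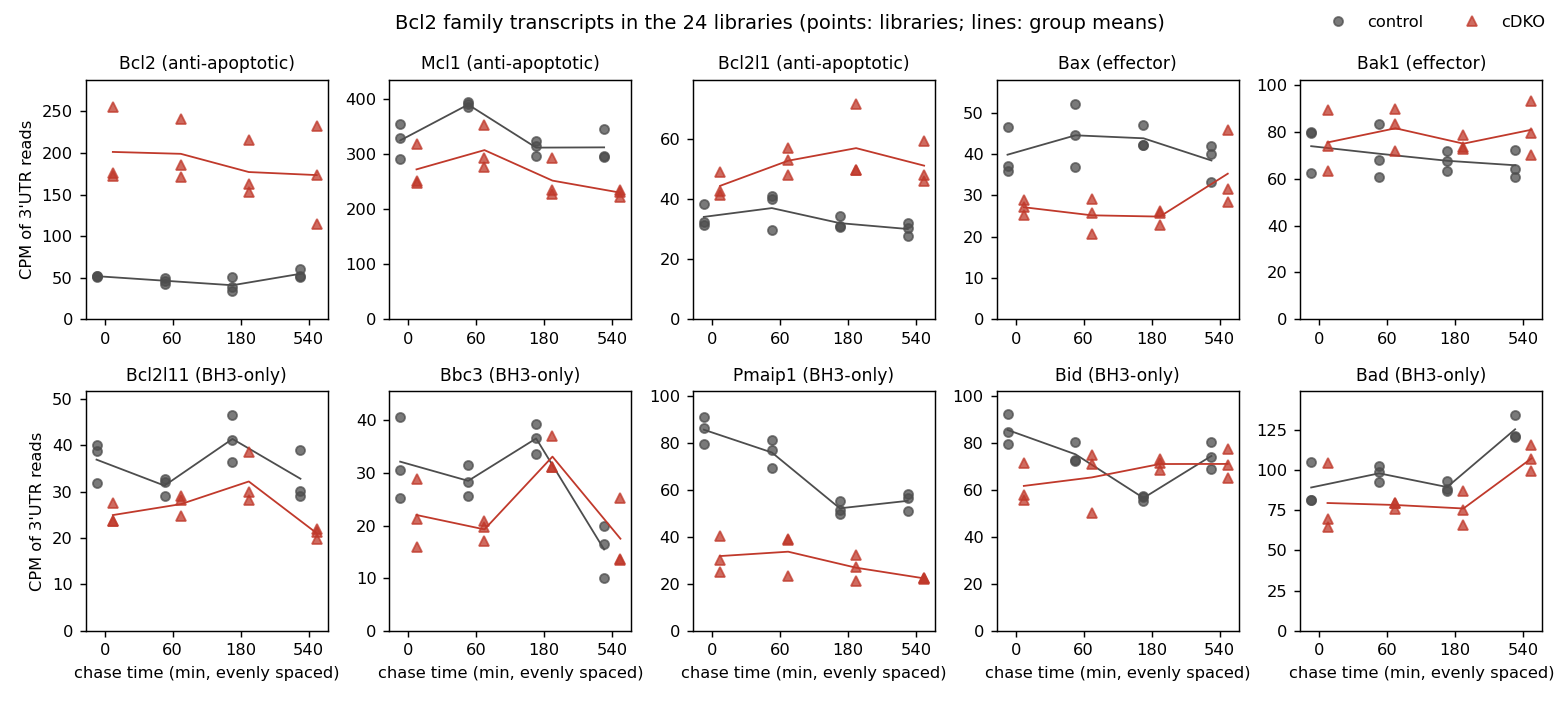
CPM of 3′UTR reads of the 10 members in each of the 24 libraries by chase time (evenly spaced on the axis), with control as circles and cDKO as triangles; lines join the group means. The genotypes are separated at all 4 times for Bcl2, Bcl2l1 and Pmaip1, and overlap at 3 of 4 times for Bak1.

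Mcl1 encodes a short-lived survival protein, and its transcript was moderately lower in cDKO cells. Control libraries had 292, 354 and 329 CPM at 0 min and cDKO libraries 247, 251 and 318 CPM, with overlap through cDKO replicate 3. At 60 min they had 385, 394 and 390.5 CPM against 293, 276 and 352 CPM. At 180 min they had 324, 314 and 297 CPM against 235, 227 and 293 CPM. Replicate 3 was the highest cDKO library at each of these times and lay just under the lowest control library at 180 min. At 540 min the values were 296, 346 and 294 CPM in control and 232, 222 and 235 CPM in cDKO, with the 3 cDKO libraries close together. The log2 difference was -0.24 ± 0.12 at 0 min (edgeR adjusted p = 0.237), -0.36 ± 0.09 at 60 min (adjusted p = 0.018), -0.33 ± 0.10 at 180 min (adjusted p = 0.051) and -0.45 ± 0.08 at 540 min (adjusted p = 0.00512). Without cDKO replicate 3 it was -0.36, -0.48, -0.45 and -0.46 and was called at all 4 times. At 180 min Mcl1 was called under 7 of 14 alternatives. At 60 min the call was lost when any control replicate or cDKO replicate 1 was left out (adjusted p = 0.0592 to 0.0793).

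Mcl1 lies on chromosome 3 (NM_008562.3, mm10 chr3:95660824-95663179, plus strand), and genes of that chromosome were lower in cDKO cells as a group. At 0 min 203 of 483 chromosome 3 genes tested were called, 185 of them lower, and their median log2 difference was -0.51 against 0.02 for genes of all other chromosomes. At 60, 180 and 540 min the chromosome 3 median was -0.48, -0.52 and -0.52. The difference of Mcl1 was smaller than that median at each time, with 59.3 to 76.4% of chromosome 3 genes below it. At 0, 60 and 180 min the gap was widest in cDKO replicate 3. In that replicate Mcl1 stood at -0.02, -0.15 and -0.09 in log2 CPM against the control mean. Its chromosome 3 median was -0.46, -0.49 and -0.48. In replicate 1 the same values were -0.39, -0.41 and -0.40 for Mcl1 and -0.47, -0.45 and -0.51 for the median. In replicate 2 they were -0.37, -0.50 and -0.46, and -0.62, -0.48 and -0.48. The 5 genes that followed Mcl1 most closely over the 24 libraries, Ankrd13c, Tmem167b, Jtb, Pla2g12a and Rap2b (r = 0.83 to 0.853), all lie on chromosome 3 too. Whether the lower Mcl1 reads belong to the shift of the chromosome was not tested.

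**Figure D3:**
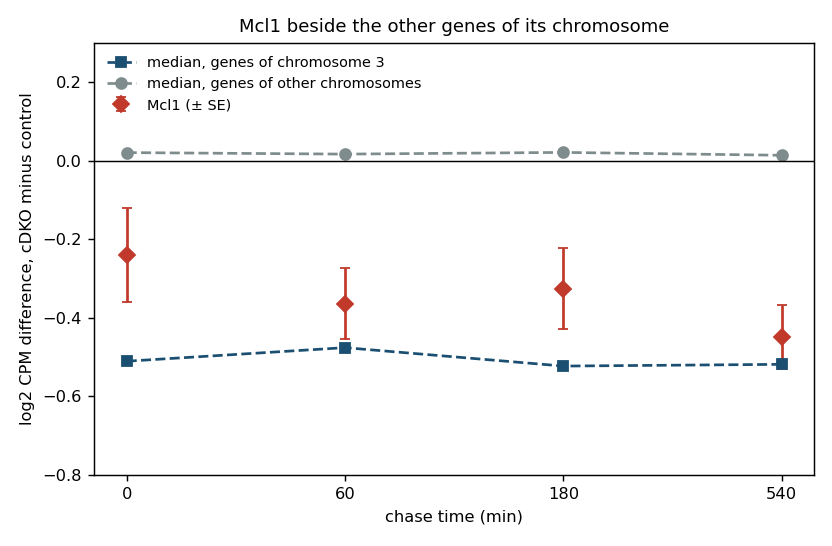
Difference in log2 CPM between cDKO and control for Mcl1 (diamonds, ± SE), with the median over the genes of chromosome 3 (squares) and over the genes of all other chromosomes (circles), by chase time. Mcl1 lies between the 2 medians at each time, at -0.24 to -0.45, where the chromosome 3 median is -0.48 to -0.52.

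Of the pore-forming effectors, Bax was called lower in cDKO cells at 60 and 180 min and Bak1 was not called at any time. Bax had 46.5, 35.9 and 37.2 CPM in control and 27.2, 25.2 and 28.9 CPM in cDKO at 0 min, and 37.0, 52.1 and 44.5 CPM against 20.5, 29.2 and 25.8 CPM at 60 min. The genotypes did not overlap at either time. At 180 min it had 42.1, 47.0 and 42.3 CPM in control and 25.6, 22.8 and 26.1 CPM in cDKO, whereas at 540 min the 33.2, 42.0 and 40.0 CPM of control overlapped with the 31.6, 28.4 and 45.8 CPM of cDKO. The log2 difference of Bax was -0.54 ± 0.16 at 0 min (edgeR adjusted p = 0.0566), -0.84 ± 0.18 at 60 min (adjusted p = 0.00768), -0.84 ± 0.14 at 180 min (adjusted p = 0.00218) and -0.13 ± 0.19 at 540 min (adjusted p = 0.685). The value at 540 min rests on cDKO replicate 3 in part, and without that library it was -0.37 (adjusted p = 0.158). Bak1 stayed between 61.0 and 83.3 CPM in control and between 63.1 and 93.1 CPM in cDKO libraries, with log2 differences of 0.05 to 0.29 (adjusted p = 0.163 to 0.888).

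Pmaip1, which encodes the p53-responsive Mcl1 antagonist Noxa, fell the most. At 0 min it had 79.6, 90.8 and 86.2 CPM in control and 40.4, 24.9 and 30.0 CPM in cDKO libraries. At 60 min it had 81.2, 76.9 and 69.3 CPM against 38.4, 39.2 and 23.3 CPM. At both times the highest cDKO library was well below the lowest control library. At 180 min the values were 49.7, 55.0 and 51.5 CPM in control and 32.1, 27.3 and 21.0 CPM in cDKO, and at 540 min 56.5, 58.3 and 51.0 CPM and 22.2, 22.4 and 22.3 CPM. The level was 1.94 to 2.69 times higher in control, and the log2 difference was -1.42 ± 0.17 at 0 min (edgeR adjusted p = 0.00104), -1.20 ± 0.18 at 60 min (adjusted p = 0.00136), -0.98 ± 0.16 at 180 min (adjusted p = 0.00218) and -1.32 ± 0.12 at 540 min (adjusted p = 0.000134). Pmaip1 was called under all 14 alternatives at each time.

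The other BH3-only members changed less. Bcl2l11, the gene of Bim, had 31.9, 38.7 and 40.2 CPM in control and 27.6, 23.6 and 23.7 CPM in cDKO at 0 min, with a log2 difference of -0.55 ± 0.16 (edgeR adjusted p = 0.0482) that was lost under 9 of 14 alternatives. At 540 min it had 29.2, 39.0 and 30.2 CPM against 22.0, 19.8 and 21.4 CPM, a log2 difference of -0.65 ± 0.17 (adjusted p = 0.0239) that was lost under 5 of 14. At 60 and 180 min the differences were -0.22 and -0.38 (adjusted p = 0.321 and 0.134). The groups overlapped at 180 min and lay just apart at 60 min. Most Bcl2l11 reads came from its long 3′UTR (NM_009754.3, mm10 chr2:128158330-128162547, plus strand). The shorter interval of NM_001291016.1 held 8.69% ± 0.359 (SD, n = 3) of the gene's reads in control and 15.7% ± 1.81 in cDKO at 180 min, without overlap, at the smallest 2-sided exact permutation p the design allows (0.1). At 0, 60 and 540 min the same share was 9.60, 17.6 and 16.7% in control and 13.2, 18.8 and 19.1% in cDKO, with overlap at each time.

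Bbc3, the gene of the p53 target Puma, had 25.6, 28.2 and 31.6 CPM in control and 21.0, 19.8 and 17.1 CPM in cDKO at 60 min, a log2 difference of -0.59 ± 0.17 (edgeR adjusted p = 0.0328). Bad, which couples growth factor signalling to the family, had 92.9, 103 and 98.7 CPM against 79.7, 79.5 and 75.8 CPM at that time, a difference of -0.35 ± 0.09 (adjusted p = 0.0282). Both groups were separated at 60 min, but the Bbc3 call was lost under 8 and the Bad call under 6 of 14 alternatives, and at the other times neither gene was called (adjusted p = 0.129 to 0.762). Bid, which caspase 8 cleaves to link death receptors to mitochondria, was the one member whose libraries were separated in opposite directions at different times. At 0 min it had 85.0, 92.5 and 79.6 CPM in control and 71.7, 58.1 and 55.7 CPM in cDKO, and at 180 min 56.9, 55.4 and 57.7 CPM and 71.4, 73.4 and 68.6 CPM. Neither difference passed the test (log2 -0.46 ± 0.14, adjusted p = 0.0579, and 0.31 ± 0.11, adjusted p = 0.0693).

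Total abundance over the chase was compared within each genotype. Chase time is given as the batch in the labels, so time and batch cannot be told apart. In control cells Mcl1 was 0.28 ± 0.07 higher on the log2 scale at 60 than at 0 min (edgeR adjusted p = 0.0297), in a comparison where 2.10% of all genes were called. This call was lost without replicate 1 (adjusted p = 0.195) or replicate 3 (0.24). At 180 min, where 6.0% of genes were called, Pmaip1 fell by 0.70 ± 0.10 (adjusted p = 0.000115) and Bid by 0.58 ± 0.10 (adjusted p = 0.000671). At 540 min, where 17.7% of genes were called, Bbc3 fell by 1.1 ± 0.2 (adjusted p = 0.000277), from a mean of 32.1 to 15.4 CPM, and Pmaip1 fell by 0.67 ± 0.10 (adjusted p = 3.6e-05), while Bad rose by 0.45 ± 0.10 (adjusted p = 0.00191). Bad lost its call without replicate 2 (adjusted p = 0.0633) or replicate 3 (0.0531). The calls of Pmaip1, Bid and Bbc3 held in each of these fits.

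In cDKO cells 0 of 10 members were called at 60, 180 or 540 min by edgeR, with 0.00956, 0.0669 and 0.984% of all genes called, and DESeq2 also called 0. At an unadjusted p under 0.05 there were 0, 2 and 2 members. The cDKO libraries of the same replicate number deviated together across times. With that number as a block, Mcl1 was called at 540 min (log2 -0.27 against 0 min, adjusted p = 0.04). Without the block the value was -0.28 ± 0.13 (adjusted p = 0.361). The change from 0 to 540 min was then compared between genotypes directly. By edgeR 0 of 10846 genes, and 0 of the members, were called for this interaction (0% of genes). At an unadjusted p under 0.05 there were 670 genes, with Bid as the 1 member. DESeq2 called 6 genes and edgeR with the replicate block 46, with 0 members in either. The member estimates ran from -0.29 ± 0.28 for Bcl2 to 0.71 ± 0.36 for Bbc3. The differences between genotypes were thus not shown to change between 0 and 540 min. Changes between genotypes from 0 to 60 or to 180 min were not tested.

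The conversion rate of each member was then followed over the chase. At 0 min it was 1.79, 1.84 and 2.07% for Bcl2 in the 3 control libraries and 0.794, 1.07 and 0.561% in the cDKO libraries. For Mcl1 it was 1.86 to 1.98% in control and 0.883, 1.01 and 0.68% in cDKO. The cDKO values were lower for both, as was the rate of the whole library. Against their own library's rate, Bcl2 stood at 1.16 ± 0.10 (SD, n = 3) in control and 1.09 ± 0.158 in cDKO, and Mcl1 at 1.18 ± 0.058 and 1.18 ± 0.092. Relative to the library rate, 0 of 10 members were called (edgeR, 0.318% of all genes called; 0 at an unadjusted p under 0.05), with log2 differences of -0.69 for Bax to 0.38 for Bcl2l11. Without the library rate in the model, all 10 were called lower, along with 7456 genes overall.

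Conversions of Mcl1 fell in control from a mean of 1.93% at 0 min to 1.26, 0.362 and 0.0723% at 60, 180 and 540 min, and in cDKO from 0.858% to 0.568, 0.223 and 0.0559%. Those of Bcl2 fell from 1.90% to 1.78, 0.732 and 0.056% in control and from 0.809% to 0.682, 0.347 and 0.0749% in cDKO. The 540 min values of both genes were close to the floor of 0.0751%. This floor is the mean rate, in the cDKO libraries at 540 min, of 419 genes that were short-lived in control. By 540 min Bbc3 fell in control from 2.09 to 0.0376%, below this floor, and in cDKO from 0.771 to 0.0255%. Pmaip1 stayed above the floor, falling from 2.24 to 0.143% in control and from 1.07 to 0.208% in cDKO. In cDKO Pmaip1 had already reached 0.292% at 180 min. Bak1, Bad and Bax followed another course. Their mean control rates were 1.30, 1.31 and 1.64% at 0 min and still 1.31, 1.23 and 1.58% at 180 min, and fell to 0.104, 0.0605 and 0.545% by 540 min. The replicate values at 0 and 180 min overlapped for these 3 genes in both genotypes, and the fitted exponentials did not follow this course.

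**Figure D4:**
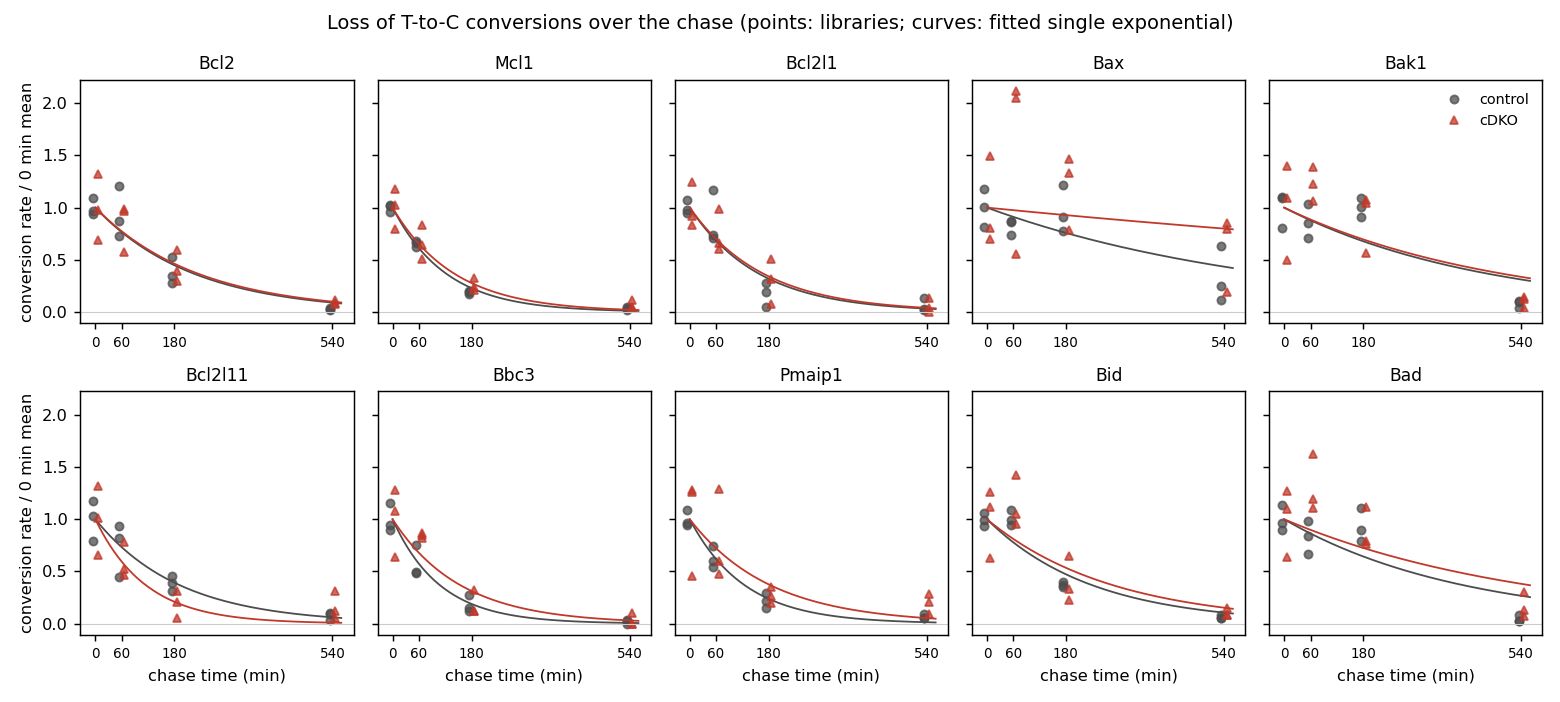
Conversion rate of each member in each library, divided by the mean at 0 min of its genotype, against chase time in min, with control as circles and cDKO as triangles. The curves are single exponentials from 1 to 0 fitted to the group means. Mcl1 and Bcl2l1 approach 0 by 540 min, while Bak1 and Bad scatter around 1 up to 180 min and lie under the curves at 540 min.

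Half-lives from these exponentials ran in control cells from 74.8 min for Bbc3, 84.5 min for Mcl1 and 86.7 min for Pmaip1, through 109 min for Bcl2l1, 133 min for Bcl2l11, 155 min for Bcl2 and 166 min for Bid, to 283 min for Bad, 321 min for Bak1 and 449 min for Bax. In cDKO cells the values in the same order were 107, 97.3, 127, 116, 79.8, 162, 199, 388, 344 and 1667 min. Over the 3712 genes with stable rates at 0 min in both genotypes, control had a median of 224 min and cDKO one of 251 min. Of the members, Mcl1 and Bcl2l1 met that condition, a standard deviation under 0.3 of the rate at 0 min after scaling to its mean, and the other 8 failed it in cDKO.

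Fits per replicate number joined the libraries that share a number across the chase times. In control these numbers did not pair libraries across times, so the spread of the control fits depends on an arbitrary joining. For Mcl1 the fits gave 86.3, 85.1 and 82.2 min among control libraries, and 88.7, 105 and 96.8 min among cDKO libraries. The genotypes did not overlap, at the smallest 2-sided exact permutation p that 3 against 3 can give (0.1). The log2 ratio of 0.20 was near the median of all 3712 genes, 0.19, and with the floor rate subtracted it came to 0.05. Bcl2 gave 193, 126 and 150 min for control libraries, and 173, 150 and 168 min for cDKO libraries, which overlap (exact permutation p = 0.6). For Bcl2l1 the fits spread from 69.8 to 190 min in control and from 81.1 to 180 min in cDKO, with wide overlap (exact permutation p = 0.8). In Bax, whose 167-base 3′UTR gave 22 conversions over the 3 cDKO libraries at 0 min, 2 of 3 cDKO fits ran to the upper limit of 10000 min and the third gave 236 min, so its cDKO half-life is not determined. Among the other members each exact permutation p was 0.2 or higher. In the control order the replicate fits of each pair of neighbours overlapped, except those of Bid and Bad.

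**Figure D5:**
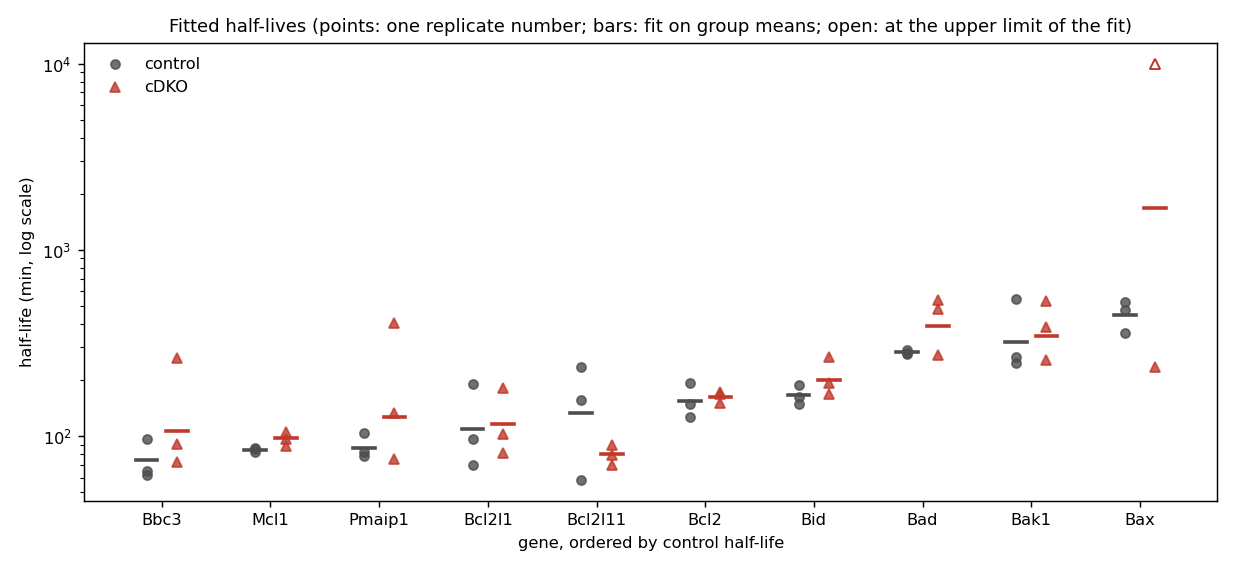
Half-life of each member in min on a log axis, in the order of the control values, with control as circles and cDKO as triangles for fits to single replicate numbers, bars for the fit to the group means, and open symbols for fits at the upper limit of 10000 min. The points of the 2 genotypes are apart for Mcl1 and overlap for the other members, and 2 cDKO points of Bax lie at the limit.

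The difference in decay between genotypes was tested for each gene as the interaction of genotype and hours on conversion counts, with covered T positions as the offset. Of 9207 genes, 0.130% were called and 0 of the members. At an unadjusted p under 0.05 there were 2, Bcl2 and Pmaip1, and DESeq2 called 0 members. A positive estimate means a slower fall of the conversion rate in cDKO, without allowance for the floor. It was 0.18 ± 0.06 (SE) log2 units per h for Bcl2 (edgeR adjusted p = 0.151), 0.16 ± 0.08 for Pmaip1 (adjusted p = 0.277) and 0.09 ± 0.05 for Mcl1 (adjusted p = 0.394). For Bcl2l1 it was 0.0041 ± 0.24, for Bax 0.06 ± 0.09 and for Bcl2l11 0.12 ± 0.09, with adjusted p = 0.512 to 0.997. All 10 estimates were positive, as were those of 80.7% of all genes tested, and the medians were 0.08 for the members and 0.07 for all genes. These sizes depended on the fit. The median over all genes was 0.042 with the floor rate subtracted, 0.025 with the library rate in the offset and 0.028 without 540 min. A difference in transcript loss was thus not shown for Bcl2, whose level was higher in cDKO. Nor was it shown for Pmaip1, whose level was lower and whose estimate was positive.

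The genes around the family were counted by list. For comparison, 13.4, 20.2, 18.9 and 19.2% of all genes tested were called at 0, 60, 180 and 540 min. Those called lower made up 6.64, 10.2, 9.78 and 10.4%. Of 17 other Bcl2 relatives 7 passed the filter on low counts, and 0, 1, 1 and 0 of them were called at 0, 60, 180 and 540 min. These were Bcl2l13, higher at 60 min (log2 0.61 ± 0.13, edgeR adjusted p = 0.00768), and Bnip3l, lower at 180 min (-0.26 ± 0.08, adjusted p = 0.0485), named after their values were seen. Of the 11 apoptosome and caspase genes, 1 was called lower at 0 min. Casp6 was lower at all 4 times, at 54.4 CPM in control and 25.9 CPM in cDKO at 0 min (log2 -1.04 ± 0.22, adjusted p = 0.0138) and at log2 -1.06 to -1.15 at the other times. The median of the list lay between -0.11 and 0.05, near that of all genes.

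For the 3 lists that follow, 6.72, 9.97, 9.10 and 8.89% of all genes tested were called higher at the 4 times. The shares called lower were 6.64, 10.2, 9.78 and 10.4%. The first list held 8 genes of IAP proteins, which inhibit caspases, and their antagonists. Of these, 1, 1, 2 and 2 were called higher and 0, 1, 0 and 0 lower. Diablo was higher at all 4 times. The protein it encodes, Smac, leaves mitochondria with cytochrome c and displaces IAPs. Its log2 difference was 0.93 ± 0.19 at 0 min (edgeR adjusted p = 0.0117) and 0.50 ± 0.13 at 540 min (adjusted p = 0.0251). The other calls, named after their values were seen, were of Htra2 and Birc5. Htra2 was lower at 60 min (log2 -0.33 ± 0.08, adjusted p = 0.0185). Birc5 was higher at 180 min (0.25 ± 0.07, adjusted p = 0.0334) and at 540 min (0.53 ± 0.08, adjusted p = 0.00183). In the death receptor list of 8 genes, 2, 3, 4 and 3 were called at the 4 times and all were lower. Tnfrsf10b, the murine TRAIL receptor, fell from a mean of 27.4 to 5.68 CPM at 0 min (log2 -2.23 ± 0.36, adjusted p = 0.00443), and Tnfrsf1a, the main TNF receptor, from 106 to 73.4 CPM (log2 -0.51 ± 0.11, adjusted p = 0.0172). Both were called at all 4 times. The other calls in this list, named after their values were seen, were not of receptors called throughout. Cflar was called lower at 60, 180 and 540 min (log2 -0.55, -0.56 and -0.34, edgeR adjusted p = 0.0048, 0.00558 and 0.0402). Ripk1 was called lower at 180 min alone (log2 -0.33 ± 0.10, adjusted p = 0.0447). Of 12 tested genes for regulators of Bcl2 family turnover or activity, 1, 3, 3 and 3 were called higher and 0, 0, 1 and 2 lower at the 4 times. Pim3, whose kinase family phosphorylates Bad, was higher at all 4 times (log2 0.46 to 0.78), with means of 59.2 CPM in control and 94.2 CPM in cDKO at 0 min (adjusted p = 0.0366). Its relative Pim1, named after its values were seen, was not called at 0, 60 or 180 min and was lower at 540 min (log2 -0.26 ± 0.08, adjusted p = 0.043). Pim2, also named after its values were seen, was not called at 0 min. It was called higher at 60, 180 and 540 min (log2 0.89 to 1.21, edgeR adjusted p = 0.0127 to 0.0293), with means of 6.47 and 15.3 CPM at 60 min. List medians stayed between -0.29 and 0.16 at all times for the 3 lists.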

How the data were processed

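Libraries of transcript 3′ ends (QuantSeq FWD) were made by the authors, who ran SlamDunk 0.4.3 over 3′UTR intervals of the mouse genome (mm10, GRCm38). Masking of sequence variants and alignment settings were not given in the sources used here. The deposited tables hold whole-number counts of reads, conversions and covered T positions per interval, with a conversion rate as a fraction and CPM scaled to filtered reads. The deposited multimapping counts reached 55 reads for a member at most. Rates and CPM were recomputed here from the counts, the latter scaled to the total of 3′UTR reads in each library. Each of the 24 tables has 39419 lines. Symbols came from RefSeq accessions (99.17% of lines). Of 30528 distinct intervals 29022 were kept, the longest of overlapping ones in a gene, and summed to 20868 genes.

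Groups followed the labels. Genotypes were compared at each time with edgeR 4.0.16 in R 4.3.3 (quasi-likelihood, TMM, filterByExpr, Benjamini-Hochberg over all genes tested), and times within genotype likewise. Decay used conversions with a log covered T offset over genes with at least 100 covered T positions in each library and 50 conversions in all, and the rate at 0 min used an offset with the library rate. Half-lives are least-squares exponentials from 1 to 0. DESeq2 1.42.0, other scalings, filters, leave-one-out fits and a replicate block were alternatives. The abundance test at 0 min, the decay test and the half-life fit were run on simulated counts. The decay check used genes rich in conversions and effects larger than any member estimate in the main test. The half-life check used the coverage of Mcl1. Neither check covers members with few conversions. The methods call the replicates biological, and p-values measure the spread between these libraries. Between genotypes, replicate numbers did not pair libraries (correlation of deviations -0.06 to 0.10), nor in control across times (-0.03 to 0.10). In cDKO they did across times (0.24 to 0.66). Blocking on that number, the cDKO chase gave 22, 110 and 793 genes called at 60, 180 and 540 min, against 1, 7 and 103 without.

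Members, gene lists and markers were chosen with earlier results of these data known. The members were named at each time. From each pathway list the up to 4 genes with the lowest adjusted p at 0 min among those called were named, and any called at all 4 times. A gene that this rule names is not reported here. For Bcl2 and Mcl1 the 5 most correlated genes were named. Decay values are given singly for the 6 members called at 2 or more times. Shares and rates rest on reads without molecular identifiers, so they are not independent molecules. Motifs were searched in GENCODE 3′UTRs of GRCm39 matched by gene and length (31.4% of kept intervals), whose coordinates were not mixed with mm10.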

Additional observations from a re-analysis of the deposited data

Results flagged for a closer look

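The libraries of Bid were separated between genotypes in opposite directions at 2 chase times. The log2 difference, cDKO minus control, was -0.46 at 0 min, with all 3 cDKO libraries below all 3 control libraries, and 0.31 at 180 min, with all 3 above. The difference between these 2 times was not tested. That between 0 and 540 min was, and was not called (0.40, edgeR adjusted p = 0.775). Groups of 3 libraries were not tested for single deviating libraries.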

How the results depend on the processing

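Leaving out each library in turn gave the following ranges. Genes called between genotypes numbered 633 to 2223 at 0 min, 1296 to 2332 at 60 min, 1155 to 2161 at 180 min and 1182 to 2070 at 540 min. Members called numbered 2 to 5, 3 to 7, 4 to 6 and 4 to 5. Over the chase, control gave 56 to 186, 168 to 341 and 911 to 1308 genes and 0 to 1, 2 and 2 to 3 members, and cDKO 0, 0 to 3 and 0 to 22 genes and 0 members. The decay test gave 3 to 30 genes and the rate at 0 min 13 to 48, with 0 members.

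At 0 min, all 24 libraries in a single fit gave 2292 genes and 5 members, and scaling by filtered reads 5 members. For the interaction of genotype with 540 min, DESeq2 gave 6 genes and the replicate block 46. For 60 min in control, no filter on low counts gave 374 and the libraries of the 2 times alone 335. In cDKO at 60, 180 and 540 min, DESeq2 gave 12, 29 and 299 genes, the replicate block 22, 110 and 793 genes, with 1 member at 540 min, and the libraries of the 2 times alone 0, 1 and 12. Between genotypes the block lowered the counts to 1087, 1783, 1717 and 1579 genes, where the numbers do not pair the libraries. The decay test gave 23 genes with the library rate in the offset, 4 with the floor rate subtracted, 1 without the 540 min libraries, 207 by DESeq2 and 59 with the replicate block. With covered T positions alone as the offset, the rate at 0 min gave 7456 genes and 10 members. The cause was not tested, except that leaving out libraries or times reduces what is fitted.

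In the tests of abundance, decay and rate, directions turned only in estimates that were not called in the main test. Between genotypes these were Bak1 at 0 min (-0.10 with filtered reads, and -0.11 to 0.17 with each library left out), Bax at 540 min (-0.37 to 0.016) and Bbc3 at 540 min (-0.19 to 0.42). In the decay test they were Bcl2l1 (-0.044 with the library rate, -0.13 with the floor subtracted, -0.0045 by DESeq2, and -0.12 to 0.197 with each library left out) and Bcl2l11 (-0.37 without 540 min). For the rate at 0 min they were Bcl2l1, Bcl2l11 and Pmaip1 with covered T positions alone (-1.15, -0.76 and -1.05), and, with each library left out, Bcl2l1 (-0.062 to 0.13), Mcl1 (-0.048 to 0.053) and Pmaip1 (-0.058 to 0.26). For the half-lives of the members, the median log2 ratio was 0.23, 0.15 to 0.35 when each replicate number was left out, 0.098 with the floor rate subtracted and 0.055 with a background of 0.1%. Ratios of single members turned sign with these subtractions for Bcl2 (-0.10 and -0.16), Bcl2l1 (-0.09 and -0.14) and Bak1 (-0.09 and -0.16), and with the 0.1% background for Mcl1 (-0.0033). Without 540 min that of Bcl2 was -0.03, in the log-linear fit that of Bcl2l11 was 0.54 against -0.74, and with a replicate number left out those of Bcl2l1 (-0.32) and Bak1 (-0.26) turned too. Without 540 min the ratio of Bad was 3.29 against 0.46 in the main fit, with its cDKO half-life at the upper limit of 10000 min. Few conversions per library limit the decay estimates of Bax, Bcl2l1 and Bbc3.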
